A study of Rattus norvegicus with 4 samples.

Results

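The interleukin-1 family is described here in NR8383, an established macrophage line from the lung of a normal rat. It comprised 9 genes: the ligands Il1b, Il1a, Il18 and Il33, the soluble inhibitors Il1rn and Il18bp, and the receptor chains Il1r1, Il1rap and Il1r2. Members were found as probes that are not controls and whose RefSeq accession maps to one of these symbols, and all 9 of 16506 named genes measured were found, on 10 probes and 19 spots. Il1rap had 2 probes, and the Il1rn probe was printed 10 times per array. The study has a single group of 4 biological replicates: cells after 20 passages, held for 4 h in DMEM with 10% fetal bovine serum. Before that they grew in DMEM with 15% heat-inactivated serum, L-glutamine, penicillin, streptomycin and amphotericin B, partly attached and partly floating, and were seeded for 48 h. The labels add the letters ALI, which are not spelled out there and are not interpreted here. No replicate was treated with anything else, so no contrast between conditions exists. All values describe a single cell line in a serum control, and no label sets the replicates apart.

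Interleukin 1 beta and interleukin 1 alpha are alarm cytokines of macrophages that bind the receptor Il1r1, which then recruits Il1rap and signals through the adaptor Myd88 to NF-kB. Il1rn, the receptor antagonist, occupies Il1r1 without recruiting Il1rap, and Il1r2 is a decoy that binds ligand without signalling. Interleukin 18 and interleukin 33 are related ligands with receptors of their own, and Il18bp binds interleukin 18 in solution. Il1b and Il18 are made as inactive precursors that inflammasome caspases cut, whereas the precursor of Il1a is already active.

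Both interleukin 1 ligands and their antagonist were far above background on every array, and on replicate 1 Il1b and Il1rn read lower than on the others whereas Il1a did not. Their upstream sequences are shown for that reason: these are the 3 members that compete for the same receptor. Of these 3, replicate 1 was the lowest array for Il1b and Il1rn but not for Il1a. It was also the lowest array for Il1rap, whose upstream sequence is not shown. The stretches are the 250 bases before the RefSeq start of each gene, 5′ to 3′ on the gene's own strand, on the GRCr8 assembly: Il1a at chr3:136990018-136990267 (minus strand), Il1b at chr3:137036582-137036831 (minus strand) and Il1rn at chr3:27520072-27520321 (plus strand). Capitals mark matches to 5 core motifs searched on both strands.
Il1a: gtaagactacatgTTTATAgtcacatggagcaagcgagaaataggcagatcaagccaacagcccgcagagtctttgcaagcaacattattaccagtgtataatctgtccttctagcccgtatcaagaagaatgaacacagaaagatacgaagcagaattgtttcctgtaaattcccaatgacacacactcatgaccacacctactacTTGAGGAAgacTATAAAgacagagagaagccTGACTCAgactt
Il1b: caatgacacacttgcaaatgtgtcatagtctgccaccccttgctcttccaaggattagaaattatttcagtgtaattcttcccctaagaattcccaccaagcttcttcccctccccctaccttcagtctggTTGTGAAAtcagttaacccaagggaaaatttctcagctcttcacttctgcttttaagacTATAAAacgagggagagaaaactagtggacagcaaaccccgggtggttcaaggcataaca
Il1rn: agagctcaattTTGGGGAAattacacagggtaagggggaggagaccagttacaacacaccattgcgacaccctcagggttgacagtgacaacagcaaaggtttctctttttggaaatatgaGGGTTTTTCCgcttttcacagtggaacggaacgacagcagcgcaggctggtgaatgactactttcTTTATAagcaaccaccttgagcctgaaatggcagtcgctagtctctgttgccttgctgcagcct
The motif TATAAA lay within 60 bases of the start in Il1a and Il1b, first base 32 and 60 bases upstream, and on the opposite strand in Il1rn and farther up in Il1a. It was present in 12.9% of 33469 rat promoter windows of the same length. The NF-kB core, GGG and CC with any 5 bases between them, was present in the Il1rn stretch, as GGGTTTTTCC, and in 42.3% of all windows, and it was not in the other 2 stretches. The AP-1 core TGANTCA (6.34% of windows) was present in Il1a next to its start. The myeloid PU.1 core GAGGAA (23.3%) was present in Il1a, where it overlaps a match to the C/EBP core TTGNNNAA (33.8%), and that C/EBP core was present in all 3 stretches. These are letter matches in a short window and say nothing of binding.

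Presence was read in 2 ways. By the scanner's own flag, a gene was called detected when all 4 arrays flagged a probe of it as well above background. This held for 6 of 9 members, Il1a, Il1b, Il18, Il1rn, Il18bp and Il1rap, beside 53.1% of all named genes. Only Il1r2 was well above background on no array, beside 34.4% of all named genes, while Il1r1 reached it on 2 arrays and Il33 on 1. In limma's test against the 95th percentile of the negative control spots, adjusted over all probes, 8 of 9 members passed, beside 69.8% of all named genes. Il1r2 was again the exception, and adjusted p for the probes of the 6 detected members lay between 2.9e-08 and 1.1e-05. The study calls the 4 samples biological replicates without saying whether they were separate cultures, so p-values measure only the spread between these samples, which may be technical. In bulk RNA, fewer cells with a transcript and less transcript per cell cannot be told apart. The plot of signal over negative controls shows both calls.

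**Figure D1:**
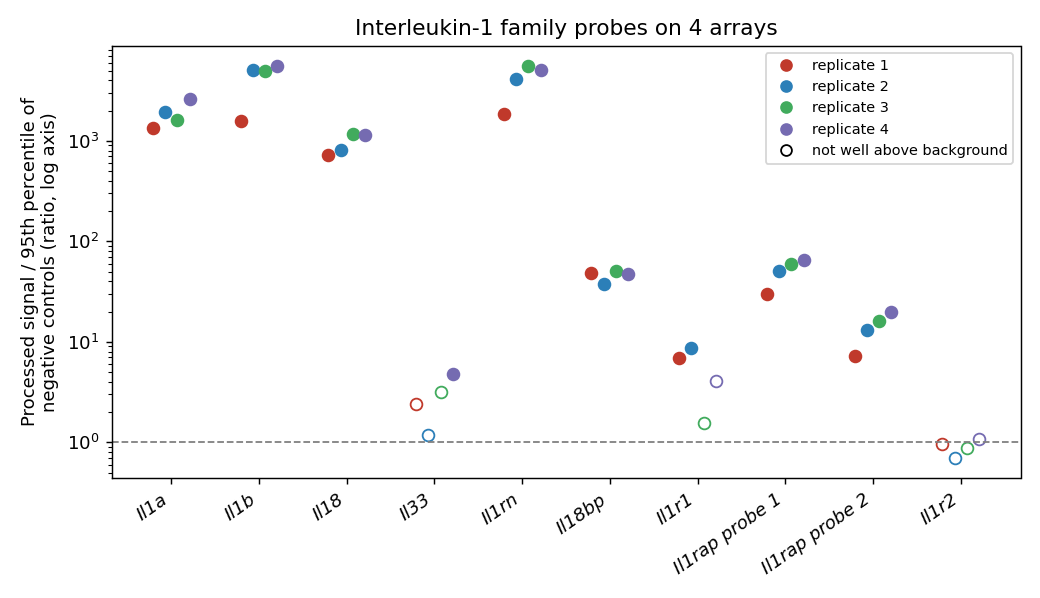
Processed signal of each interleukin-1 family probe divided by the 95th percentile of negative controls on the same array (ratio, log axis), 1 point per array, coloured by replicate and open where the spot was not well above background. Il1a, Il1b, Il18 and Il1rn lie between 725 and 5618 times the negative controls, Il1r2 lies at or below 1.08 times on all 4 arrays, and Il33 and Il1r1 lie in between.

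The arrays differed in overall brightness, which sets how raw signals are read. The 75th percentile of signal was lowest on replicate 1 (83.4) and highest on replicate 4 (167), and between 50.9% and 58.9% of spots were well above background. Levels below are log2 of the processed signal minus log2 of the same array's 75th percentile. The arrays shared 1 slide and 1 scan, each at its own position, so position and replicate cannot be told apart. Precision is limited by having only 4 arrays. No spot of a member lay in the patch of the array surface where 77 detected probes were over 2 log2 units lower on replicate 4. Markers of macrophages, the stated identity of the line, were detected in 8 of 8 cases, beside 53.1% of all named genes. Defining markers of neutrophils (0 of 4), epithelium (0 of 6) and B cells (0 of 1) were not detected. Those of fibroblasts (2 of 5), T cells (1 of 3) and endothelium (3 of 4) were detected in part. Of the undetected neutrophil and epithelial markers, S100a9, Krt8 and Sftpc passed limma's test against negative controls (adjusted p = 0.0137, 0.0314 and 0.000404).

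Among the ligands, Il1b, the main secreted interleukin 1 of activated macrophages, was far above background but uneven between replicates. Its probe (A_43_P14911, to NM_031512) gave processed signals of 5085, 16953, 15381 and 20215 on replicates 1 to 4. After scaling these were levels of 5.93, 7.24, 6.93 and 6.92, with a mean of 6.75 ± 0.57 (SD, n = 4). Replicate 1 lay below the other 3 arrays, which were close to each other (SD 0.19). Its departure from their mean was -1.10 log2 units, a 2.14-fold lower value. Of all 8772 detected genes, 1.86% lay as far down or farther on replicate 1, and 6.99% had an SD as large.

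Il1a, the cell-associated ligand, was also far above background, and replicate 1 was not its lowest array. Its probe (A_42_P641004, to NM_017019) gave signals of 4393, 6387, 4945 and 9395 on replicates 1 to 4. These were levels of 5.72, 5.83, 5.29 and 5.81, with a mean of 5.66 ± 0.25 (SD, n = 4), so that replicate 3 and not replicate 1 was lowest. Replicate 1 differed from the mean of the others by 0.075 log2 units, a value whose sign turned under 4 alternatives, given with the processing alternatives. Within an array the scaling cancels when the 2 genes are set against each other. On that measure Il1b relative to Il1a departed by -1.17 log2 units on replicate 1 from the mean of the other arrays, or 2.25-fold lower. The same difference ranged over 0.53 log2 units among replicates 2 to 4.

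Il18, the interferon-gamma-inducing ligand, had the smallest SD of the detected members over all 4 arrays. Its probe (A_44_P161233, to NM_019165) gave signals of 2354, 2677, 3612 and 4092, or levels of 4.82, 4.58, 4.84 and 4.61. The mean was 4.71 ± 0.13 (SD, n = 4), and 79.8% of detected genes had an SD as large or larger. Without replicate 1 its SD was 0.14, above those of Il1rap (0.018) and Il18bp (0.12), and without replicate 3 it was 0.13, above that of Il1a (0.060). Replicates 1 and 3 were a little above replicates 2 and 4, within a range of 0.26 log2 units. Relative to Il1b within the array, Il18 was 1.24 log2 units higher on replicate 1 than on the others.

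Il33, an alarmin best known from epithelial and endothelial nuclei, was at the edge of what the array could measure. Its probe (A_44_P310596, to NM_001014166) gave signals of 7.83, 3.93, 9.72 and 17.3, where the software's own error of the spot was between 3.19 and 3.39. It was well above background on replicate 4 alone. The mean over negative controls was 1.36 log2 units (SE 0.34), which passed limma's test (adjusted p = 0.0061) but did not under normexp background correction. Of the 6 epithelial markers none was detected on all 4 arrays and 5 were well above background on no array, Epcam and Cdh1 among them. The surfactant gene Sftpc was well above background on 2 arrays, and it and the keratin gene Krt8 passed limma's test against negative controls (adjusted p = 0.000404 and 0.0314).

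The antagonist Il1rn was far above background on every array and, as for Il1b, replicate 1 was its lowest. Its probe (A_44_P462661, to NM_022194) was printed 10 times, which gave it the most precise value of the members within an array. The median spot read 5900 on replicate 1 (range 4716 to 7143), 14728 on replicate 2 (10645 to 15554), 17258 on replicate 3 (15823 to 17971) and 18557 on replicate 4 (17127 to 18782). No spot of replicate 1 reached the range of any other array. The levels were 6.16, 6.93, 7.07 and 6.77, with a mean of 6.73 ± 0.40 (SD, n = 4). The standard error of an array's mean over its spots was between 0.016 and 0.069 log2 units, so the departure of replicate 1 from the other arrays, -0.76, was larger than the noise between spots of an array. That noise does not cover differences between samples or labelling reactions. Of detected genes, 5.77% lay as far down or farther on replicate 1.

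**Figure D2:**
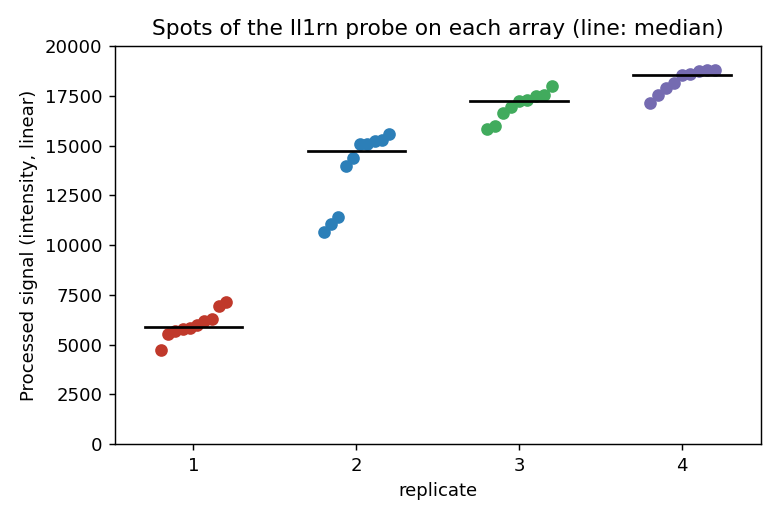
Processed signal (linear intensity) of each spot of the Il1rn probe that was not an outlier, by replicate, with the median as a line. The 10 spots of replicate 1 lie between 4716 and 7143, below all spots of replicates 2 to 4, and 3 spots of replicate 2 lie apart below its other 7.

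Il1rn and Il1b were also set against each other within the array. The log2 difference of Il1rn and Il1b deviated from its own mean by 0.25, -0.29, 0.16 and -0.13 on replicates 1 to 4 (SD 0.25, n = 4). That spread was smaller than the SD of either gene's level (0.40 and 0.57), which rests on both genes being low on replicate 1. Among replicates 2 to 4 the difference ranged over 0.46 log2 units, and replicate 1 departed from their mean by 0.34. Over those arrays the SD was 0.15 for Il1rn and 0.19 for Il1b, with Il1rn highest on replicate 3 and Il1b on replicate 2. Il1rn relative to Il1a, in contrast, departed by -0.83 log2 units on replicate 1 from the other arrays, about as much as its range of 0.82 among replicates 2 to 4.

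Il18bp, the soluble inhibitor of interleukin 18, deviated in the opposite direction. Its probe (A_44_P549304, to NM_053374) gave nearly equal raw signals of 158, 125, 154 and 172 on arrays that differed in brightness. The levels were therefore 0.92, 0.16, 0.29 and 0.04, with a mean of 0.35 ± 0.39 (SD, n = 4). Replicate 1 was above the other 3 arrays by 0.76 log2 units, while those 3 had an SD of 0.12. Of detected genes, 91.4% lay at or below that departure.

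Of the receptor chains, the shared signalling chain Il1rap was detected on every array by both of its probes. The probe to NM_012968 (A_44_P1009757) gave signals of 97.4, 170, 183 and 235, or levels of 0.22, 0.60, 0.53 and 0.49. The probe to NM_001167840 (A_44_P1085078) gave 23.3, 43.6, 49.9 and 71.0, or levels of -1.84, -1.36, -1.34 and -1.24. The 2 probes read different transcript records, so their levels are not set against each other, and both were lowest on replicate 1. Averaged over both, the gene lay at -0.81, -0.38, -0.41 and -0.37, with a mean of -0.49 ± 0.21 (SD, n = 4). For that average, replicates 2 to 4 had an SD of 0.018 and the departure of replicate 1 was -0.42. The averaging made that SD small, since from replicate 2 to replicate 4 the first probe fell and the second rose. Of detected genes, 16.9% lay as far down or farther on replicate 1, and 57.1% had an SD over the 4 arrays as large or larger.

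Il1r1, the ligand-binding signalling receptor, was close to background. Its probe (A_44_P986010, to XM_006244750, a predicted transcript) gave signals of 22.5, 28.7, 4.81 and 14.6 and was well above background on replicates 1 and 2 only. The mean over negative controls was 2.14 log2 units (SE 0.41), which passed limma's test (adjusted p = 0.00194). Its SD of 1.35 log2 units mixes arrays above and below background, so no change between replicates is read from it.

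Il1r2, the decoy receptor, was not found. Its probe (A_42_P820657, to NM_053953) gave signals of 3.13, 2.31, 2.69 and 3.88, each about the size of its own error estimate (2.32 to 3.14). The mean relative to the negative controls was -0.16 log2 units (SE 0.18, limma adjusted p = 0.961). The depth of these arrays cannot show that the transcript is absent.

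The 6 detected members therefore differed in how they varied. Il1b, Il1rn and Il1rap were lowest on replicate 1 (3 of 6), beside 32.8% of all detected genes, and Il18bp was highest there (1 of 6), beside 42.3%. Only Il1b had a departure of replicate 1 of at least 1 log2 unit downwards (1 of 6), beside 2.54% of all detected genes. Without replicate 2 its departure was -0.99 and no member passed that size, and under normexp Il1rn passed it too (-1.07). The median SD of the 6 was 0.32, beside a median of 0.24 over all detected genes (quartiles 0.15 and 0.36), and without replicate 1 it was 0.145, beside 0.146. These departures are a description, since replicate 1 is an array of the group and no condition of its own.

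**Figure D3:**
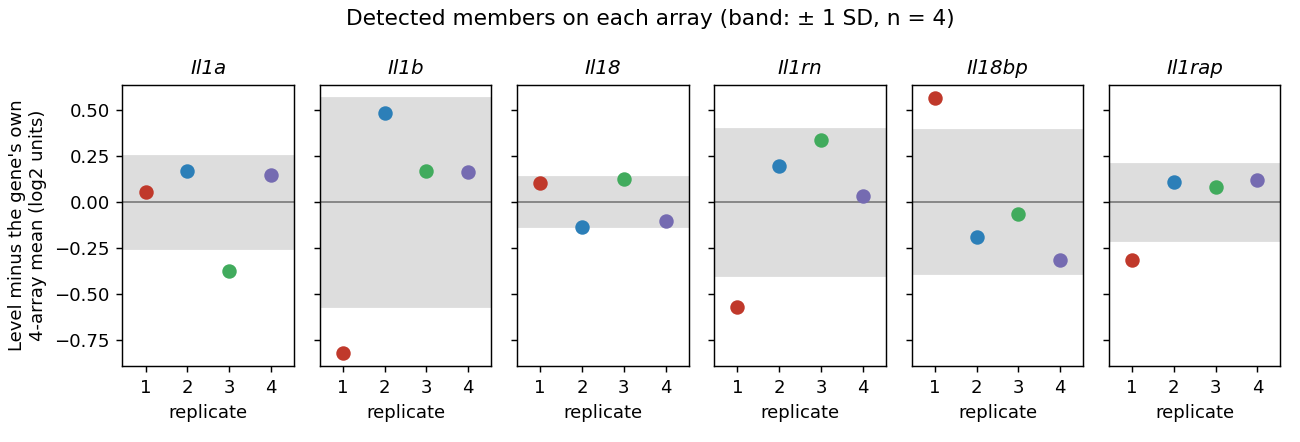
Level of each detected member on replicates 1 to 4 minus the gene's own mean over the 4 arrays (log2 units), with a band of 1 SD on either side (n = 4). Il1b, Il1rn and Il1rap lie below the band on replicate 1 and Il18bp above it, while Il1a lies below its band on replicate 3.

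**Figure D4:**
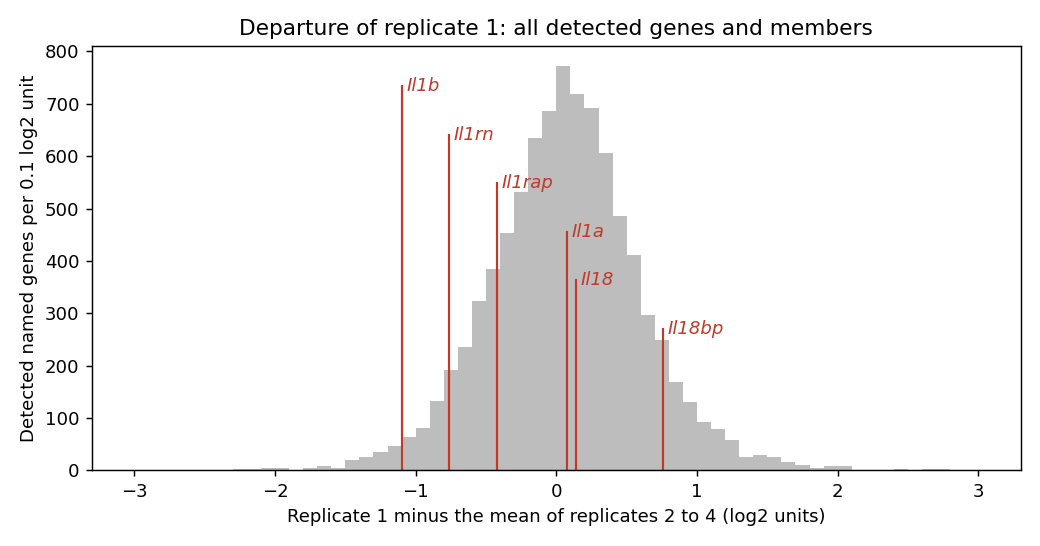
Number of detected named genes by the difference between replicate 1 and the mean of replicates 2 to 4 (log2 units, bins of 0.1, axis limited to 3 units on either side), with the 6 detected members as lines. All detected genes centre on 0.071, Il1b lies in the lower tail at -1.10, and Il18bp lies above most genes at 0.76.

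The genes closest to Il1b in pattern were sought among all detected genes by the root mean square difference of the deviations from each gene's own mean, over the 4 arrays. They were Adnp2 (0.025 log2 units), the nucleotide receptor gene P2ry2 (0.030) and the neutrophil-attracting chemokine gene Cxcl2 (0.038). Il1rn ranked 460 on that measure (0.22) and Il1rap 1196. The measure rests on only 4 arrays, and 352 genes (4.01% of those detected) lay within 0.2 log2 units of Il1b.

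Beyond the members, 4 lists of pathway genes held 58 genes, of which 50 were measured and 34 detected (68%), again beside 53.1% of all named genes. The other ligands and receptors of the family were mostly not detected, with 2 of 11. These were Il36b, a ligand best known from epithelia, at -0.86 ± 0.34 (SD, n = 4), and its antagonist Il36rn at -1.14 ± 0.16 on 1 of its 2 probes. The interleukin 33 receptor Il1rl1, the interleukin 36 receptor Il1rl2, the interleukin 18 receptor chain Il18r1 and the inhibitory receptor Sigirr were well above background on no array. Of these 4, Sigirr passed limma's test against negative controls (adjusted p = 0.0356).

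Genes that process or release the ligands were detected in 9 of 10 cases (90%), beside 53.1% of all named genes. Of the 9, 4 were lowest and 4 highest on replicate 1, beside 32.8% and 42.3% of all detected genes. Their median departure was 0.11, beside 0.071 over all detected genes. Casp1, which cuts the precursors of Il1b and Il18, lay at 1.77 ± 0.25 (SD, n = 4), with replicate 1 lowest at 1.42 and the others between 1.78 and 1.98. Casp4, the caspase that senses endotoxin inside the cell, lay at 0.99 ± 0.32 and was also lowest on replicate 1. Casp8 lay at -0.03 ± 0.34 and was highest on replicate 1, at 0.40 against -0.38 to 0.08 elsewhere. The sensor Nlrp3 lay at -0.0012 ± 0.24, with replicate 1 inside the range of the others. Pycard, the adaptor that joins sensor and caspase, was highest on replicate 1 too, at 2.68 against 0.94 to 1.17 elsewhere. The calpain genes Capn1 (departure 0.49) and Capn2 (0.21) were highest there as well, and Hax1 (-0.46) and Ninj1 (-0.23) lowest, all 4 named after their values were seen. The ATP-gated channel P2rx7 was well above background on 1 array and did not pass limma's test (adjusted p = 0.129).

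All 15 measured genes of receptor signalling were detected, beside 53.1% of all named genes. The adaptor Myd88 lay at 5.19 ± 0.16 (SD, n = 4), and the kinases Irak1 at 1.53 ± 0.06 and Irak3, which brakes the pathway, at 3.15 ± 0.08. These varied little, whereas Irak2 stood at 0.53 on replicate 1 against 1.88 to 2.18 elsewhere. Chosen after its values were seen, the ubiquitin ligase gene Traf6 was low on replicate 1, at -2.14 against -0.93 to -0.53. Irak2 and Traf6 were the 2 of 15 genes at least 1 log2 unit lower there, beside 2.54% of all detected genes, and under normexp 1 was. The NF-kB subunit gene Rela departed by -0.40 log2 units on replicate 1, at 2.62 against 3.00 to 3.04. Of the 15 genes, 6 were lowest on replicate 1, beside 32.8% of all detected genes, and 1 was highest, beside 42.3%. The median departure of the list was -0.046, beside 0.071 over all detected genes.

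Genes known to be induced by interleukin 1 were detected in 8 of 14 cases (57.1%), near the 53.1% of all named genes. Of the 8, 5 were lowest on replicate 1, beside 32.8% of all detected genes, and 1 was highest there, beside 42.3%. The list was chosen with earlier results of these arrays known, so it is no independent evidence of a direction. The inhibitor Nfkbia, an early NF-kB target, lay at 3.46 ± 0.10 (SD, n = 4) with replicate 1 inside the range of the others, and Zc3h12a lay at -0.17 ± 0.44. Icam1, an adhesion molecule, read 4.50 on replicate 1 and between 5.27 and 5.54 elsewhere. The chemokine Cxcl2 read 0.78 there and between 1.72 and 1.98 elsewhere, and the monocyte chemokine Ccl2 read 5.83 against 7.70 to 7.81. Together with Csf3 (-1.06) and Lcn2 (-1.50), both chosen after their values were seen, Cxcl2 (-1.03) and Ccl2 (-1.92) made up the 4 of 8 genes at least 1 log2 unit lower on replicate 1, beside 2.54% of all detected genes. Without replicate 2 the number was 2. The median departure of the 8 was -0.95, beside 0.071 over all detected genes, and -0.75 without replicate 2. The nitric oxide synthase gene Nos2, also named after its values were seen, was the 1 detected gene of the list that was highest on replicate 1 (departure 0.22). It was detected on 1 of its 2 probes, and replicate 1 (-2.712) was nearly equal to replicate 4 (-2.715). Not detected were Cxcl1 and Ccl20, well above background on 2 arrays and 1 array, and Il6 and Ptgs2, on none. Csf2, on no array, and Mmp3, on 3 arrays, were not detected either and were named after their values were seen. Cxcl1, Ccl20 and Mmp3 passed limma's test against negative controls (adjusted p = 5.2e-05, 8.0e-05 and 0.00091). Il6, Ptgs2 and Csf2 did not pass limma's test (adjusted p = 0.985, 0.973 and 0.922).

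**Figure D5:**
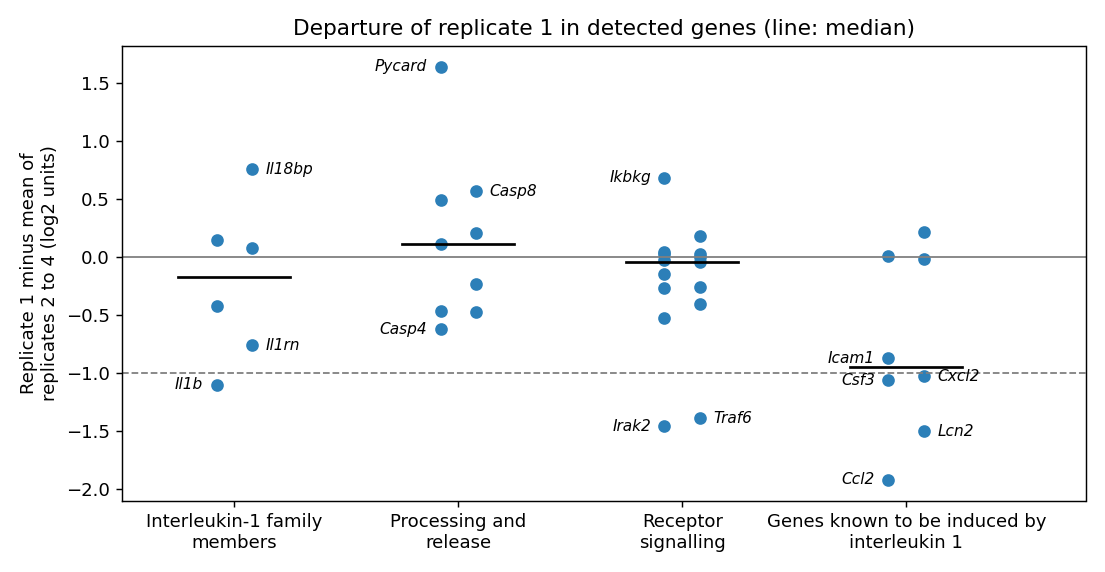
Replicate 1 minus the mean of replicates 2 to 4 (log2 units) for each detected gene of the family and of 3 pathway lists, with the median as a line and a dashed line at -1. Il1b lies at -1.10 among the members, Irak2 and Traf6 apart from the other signalling genes, and 4 of 8 genes known to be induced by interleukin 1 below the dashed line.

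Other values moved with replicate 1 beside these genes. That array had the lowest 75th percentile of signal and the smallest share of spots above background. Among the 8 macrophage markers, departures on replicate 1 ranged from -0.84 for the endotoxin co-receptor gene Cd14 to 1.36 for the mannose receptor gene Mrc1, with a median of 0.052. Of the 3 detected endothelial markers, Pecam1 departed by 1.34 log2 units on replicate 1, whereas Cdh5 (-0.0087) and Vwf (0.0070, on 1 of its 2 probes) were level with the other arrays. The median of the 3 was 0.0070. Of the 2 detected fibroblast markers, Dcn departed by -0.74 and Col1a2 by 0.088. The 5 fibroblast markers summed to 1.01 times the 75th percentile on replicate 1 and between 1.39 and 1.42 times elsewhere, with Col3a1 and Pdgfra well above background on no array. The sums of the neutrophil, epithelial and T cell markers were also lowest on replicate 1. No neutrophil or epithelial marker was detected, so the neutrophil and epithelial sums add signals mostly near background and are not read as cell makeup. The epithelial sum was nearly equal on replicates 1 and 2 (0.279 and 0.283). The sums of endothelium (5.22, against 2.46 to 2.98) and macrophages (694, against 582 to 669) were highest on replicate 1, and that of B cells was neither. These sums used the mean of all probes of a gene, so Vwf entered as the mean of its detected and its undetected probe. On its detected probe alone Vwf lay at 4.16, 3.93, 4.21 and 4.33 on replicates 1 to 4. No sum was made with that probe alone, so no endothelial rise on replicate 1 is read from the sum. The part of array brightness or of cell makeup in the low values of Il1b, Il1rn and the induced genes was not tested.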

How the data were processed

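Total RNA of 4 samples of a single group was labelled with Cy3 from 100 ng and hybridised to 4 one-colour Agilent rat arrays. The authors deposited scanner output of Agilent Feature Extraction 11.0.1.1, per the submitters' processing notes: for each of 62976 spots a processed signal intensity, after the software's own background handling and detrending and not scaled between arrays per the file headers, with its error, median foreground and background intensities, and flags. Here, 4259 control spots and outlier spots were left out, and the log2 signals of a probe's spots were averaged. That mean minus log2 of the array's 75th percentile gave the level. Probes were named through unversioned RefSeq accessions in a GRCr8 table, which named 17614 of 40539 accessions, so a gene without a matched probe was not analysed here. A gene was the mean of its detected probes, except in the sums of markers, which used all its probes. No spot was saturated.

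Presence was tested one-sided with limma 3.58.1 (R 4.3.3; lmFit and eBayes, Benjamini-Hochberg adjustment over 45280 probes, threshold 0.05) against each array's 95th percentile of 308 negative control spots. On simulated data with the real means, 54% of 50 probes raised by 0.5 log2 units and 90% of 50 raised by 1 were called. Of 2000 probes not raised, 4% were. The simulated noise was normal, independent between arrays and drawn from limma's own variance model. Brightness shifts shared by an array and larger spread of dim probes were thus not simulated. Members and lists were chosen with earlier results of these data known. Named were all members, the first 4 detected and first 4 undetected genes of each list, list genes that met Dixon's criterion, and the 3 genes closest to Il1b. Traf6, Csf2, Csf3, Lcn2, Nos2, Mmp3, Capn1, Capn2, Hax1 and Ninj1 fall outside that rule and were named after their values were seen. The same holds for the cell type markers given with values. Alternatives were other scalings, flags, probe rules, background corrections and leaving out each replicate. Sequences are from RefSeq, GRCr8, with 250 bases before each start.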

Additional observations from a re-analysis of the deposited data

Results flagged for a closer look

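In 5 of the 40 genes examined (members and list genes, detected), 1 array stood apart from the other 3 by Dixon's criterion for 4 samples, in which the gap to the nearest sample divided by the range exceeds the 95% critical value. Chance gives about 1 in 20, and 8.41% of all detected genes passed it. For Il1rap (0.923), Ccl2 (0.941) and Rela (0.895) the array was replicate 1, which was low. The Il1rap value is that of the mean of its 2 probes, and the criterion was not applied to each probe. From replicate 2 to replicate 4, 1 probe fell from 0.60 to 0.49 and the other rose from -1.36 to -1.24, which the mean evens out. For Pycard (0.866) it was replicate 1, which was high. For Il36rn (0.833) it was replicate 3, which was high.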

How the results depend on the processing

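The 6 detected members stayed at 6 when each replicate was left out, with a flag on at least 3 arrays, with every probe required and without the dim patch of replicate 4 (added after seeing the data), and rose to 8 with the looser positive-and-significant flag, which adds Il33 and Il1r1. The 8 members above negative controls were 7 under normexp, where Il33 was lost. The departure of replicate 1 for Il1b lay between -1.25 and -0.99 over 10 alternatives, for Il1rn between -1.07 and -0.69, for Il1rap between -0.51 and -0.32 and for Il18bp between 0.59 and 0.82. For Il1a its sign turned, to -0.015 with the 75th percentile over detected probes, -0.21 under normexp, -0.064 under quantile normalization and -0.10 without replicate 3 (leaving out other replicates gave up to 0.17), and for Il18 to -0.34 under normexp; the cause was not tested. Other ligands and receptors detected went from 2 to 1 when every probe of a gene had to be detected, since 1 of 2 probes of Il36rn was not. The median SD of detected members was 0.145 without replicate 1 and lay between 0.145 and 0.367 over the replicates left out in turn. Levels moved by more than their SD in 12 of the alternatives' values and by less in 48. No paired analysis was possible because the series has a single group. Signal over background limits Il33, Il1r1 and Il1r2.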

Other observations

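On replicate 2 the 10 Il1rn spots fell into 2 sets by place on the array, a split chosen after seeing the data. The 3 spots in rows 238 to 365 read 10645 to 11410, and the 7 in rows 50 to 186 read 13989 to 15554. Over 1034 probes with 10 spots on that array, bands of rows shifted by a median of -0.014 to 0.017 log2 units. The spot SD of Il1rn there was 0.217 log2 units, reached by 12.5% of those probes. Without the 3 spots the level of replicate 2 was 7.06 and the departure of replicate 1 was -0.80.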
